A study of Mus musculus with 6 samples.

Results

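The genes described here are 10 components of the unfolded protein response, *Ern1*, *Eif2ak3*, *Atf6*, *Xbp1*, *Atf4*, *Ddit3*, *Hspa5*, *Dnajb9*, *Herpud1* and *Trib3*. They were taken by symbol from the expression values of every library, and all 10 were found among the 55367 symbols listed. All 10 also reached the level at which a gene was tested, which 14862 genes did. RNA-seq was done on DBA-positive kidney cells of WT, ADPKD and MMPP-treated ADPKD mice at the time labelled Day115, with 2 libraries in each of the 3 groups. DBA is a plant lectin that binds collecting duct epithelium, and the cells were pulled from enzymatically digested kidneys with lectin-coated beads. ADPKD mice were male *Pkd1* fl/fl;Cre/Esr1+ animals, labelled Pkd1-/-, in which tamoxifen deleted *Pkd1* at a juvenile age. WT and ADPKD mice received saline, and the ADPKD+MMPP group of the same labelled genotype received repeated intravenous MMPP, an ultra-small melanin-like nanoparticle that carries Mn2+ and polyethylene glycol. Whether the WT mice were also given tamoxifen, how many mice made up a library and whether replicates came from separate animals are not given in the sources used here. The p-values below therefore measure only the spread between these libraries, which may be technical.

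The unfolded protein response is switched on when proteins that have not folded build up in the endoplasmic reticulum (ER). Its sensors sit in the ER membrane, where the chaperone BiP, made by *Hspa5*, keeps them quiet until it is drawn away to unfolded proteins. IRE1 then splices *Xbp1* RNA, PERK phosphorylates eIF2alpha so that most translation slows while ATF4 is made, and ATF6 moves to the Golgi, where it is cut to release a transcription factor. Each of these activating steps acts on a protein or on splicing, so the gene-level values below are levels of RNA and do not read the activity of a sensor.

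Expression is given in FPKM, the fragments of a gene scaled to its exon length and to the size of the library. *Pkd1* had 17.7 and 17.2 FPKM in WT, 7.64 and 8.91 in ADPKD and 4.34 and 3.99 in ADPKD+MMPP, so that it was lower in both groups labelled Pkd1-/-. It was also lower in ADPKD+MMPP than in ADPKD, which share the labelled genotype, so these levels cannot check the MMPP label. Each library was worth 30.6 to 33.1 M reads in WT and ADPKD and 10.9 to 11.8 M in ADPKD+MMPP, judged from the steps between low values. When FPKM were turned back into reads, odd numbers made up 35.3% to 37.2% of low values in WT and ADPKD, but 7.19% to 7.68% in ADPKD+MMPP. This feature of the values belongs to 1 group only, so it and the effect of MMPP cannot be told apart. Pearson's r of log2(FPKM + 1) over genes was 0.958 to 0.992 within groups and 0.590 to 0.679 between ADPKD+MMPP and other libraries, as a description of the libraries. Markers of collecting duct principal cells were present, with *Aqp2* at 677 to 3555 FPKM, but so were those of other cells, such as podocytes and proximal tubule. The 8 principal cell markers summed to 2079 and 2776 FPKM in WT, 2482 and 942 in ADPKD and 5417 and 5441 in ADPKD+MMPP. The ADPKD libraries thus differed from each other, as in *Hsd11b2*, at 432 and 56.4 FPKM.

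Promoter sequence of 9 of the 10 genes was at hand, all but that of *Atf6*, as RefSeq sequence of GRCm38.p6 from 250 bases before to 50 bases after each start. The ER stress response element (ERSE), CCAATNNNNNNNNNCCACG, is a known site of ATF6 and XBP1 beside the factor NF-Y. Searched on both strands, it was found in 0.119% of 32851 promoters and in 1 of the 9, that of *Hspa5*. The related ERSE-II, ATTGGNCCACG, was found in 0.0365% of promoters and among the 9 in *Herpud1*. *Herpud1* also held the composite site of ATF4 and C/EBP factors, TGATGCAA, on the opposite strand, a motif of 0.895% of promoters. These windows hold the only matches to these motifs among the 9 promoters, and capitals mark the motif.
Hspa5 ERSE window: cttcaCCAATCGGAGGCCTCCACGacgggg
Herpud1 ERSE-II window: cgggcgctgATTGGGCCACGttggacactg
Herpud1 ATF4-C/EBP window: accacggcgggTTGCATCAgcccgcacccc

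The *Hspa5* window is chr2:34772020-34772049 on the + strand, from 70 to 41 bases before the RefSeq start, and inside the span that GENCODE vM21 gives the gene. The *Herpud1* windows are chr8:94386368-94386397 and chr8:94386306-94386335, both on the + strand and upstream of the gene. The UPRE, TGACGTGG, which spliced XBP1 is known to bind, was in none of the 9 and in 0.676% of all promoters. The full CRE, TGACGTCA, the site of CREB, was also in none of the 9 and in 1.79% of all. Its half-site TGACG, which is contained in the UPRE and the CRE, was in 5 of the 9, *Hspa5*, *Trib3*, *Herpud1*, *Dnajb9* and *Atf4*, against 20.8% of all promoters. A match of letters is a description of these windows and not a site of binding.

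**Figure D1:**
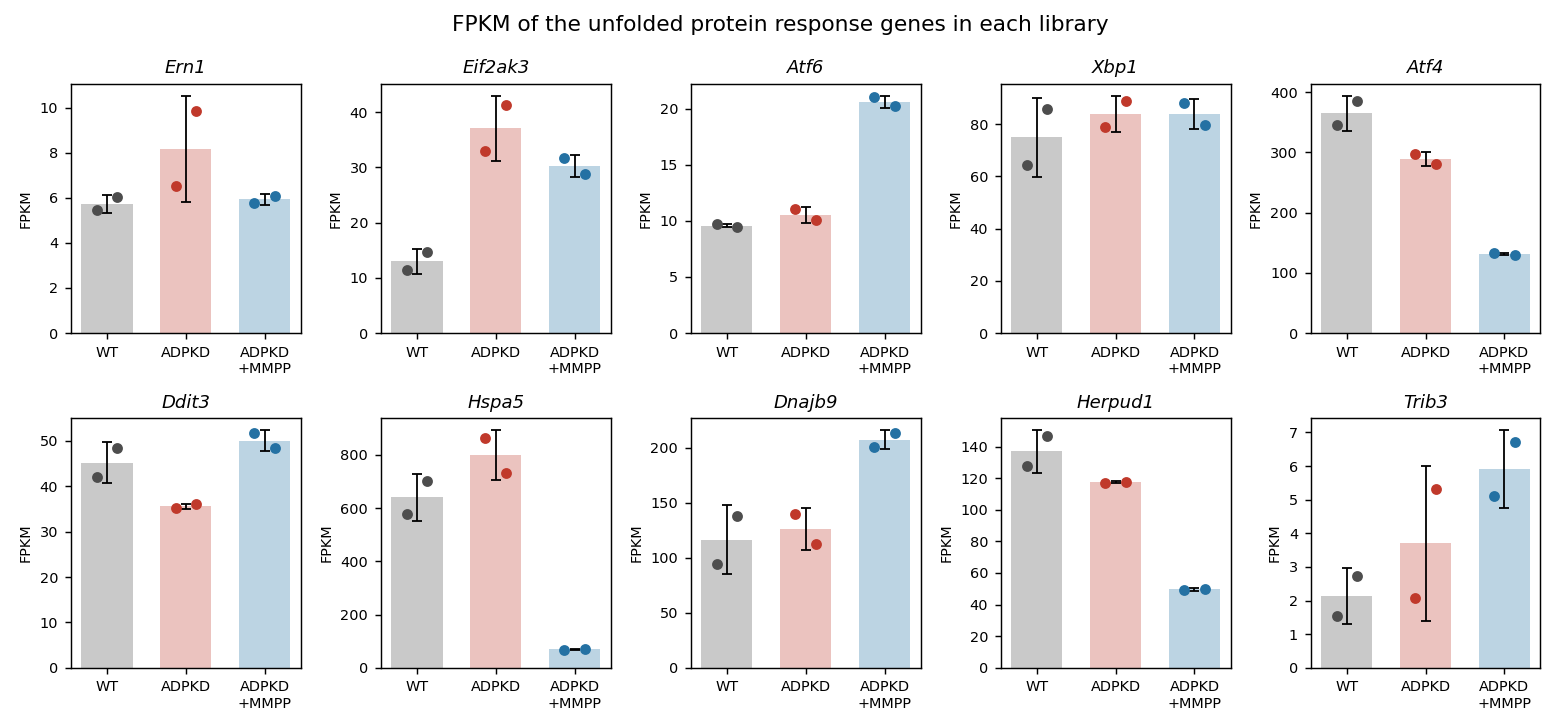
FPKM of the 10 unfolded protein response genes in each library (vertical axes in FPKM, each from 0). Points are libraries, bars are means and error bars are SD over 2 libraries. *Hspa5* sat at 579 to 865 FPKM in WT and ADPKD and at 68.1 and 69.4 FPKM in ADPKD+MMPP.

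The sensors came first. *Eif2ak3* encodes PERK, the eIF2alpha kinase of the ER membrane, and lies on chromosome 6 from 70844515 to 70905245. It had 11.3 and 14.6 FPKM in WT, 32.9 and 41.3 in ADPKD and 31.7 and 28.9 in ADPKD+MMPP. Every *Pkd1*-deleted library, treated or not, lay above both WT libraries. In ADPKD it was 2.86-fold higher than in WT by the ratio of mean FPKM, with a log2 fold change of 1.45 (SE 0.17, limma, adjusted p = 0.0045). Log2 fold changes are on the log2(FPKM + 1) scale, which understates changes of genes with low FPKM. In bulk RNA such as this, more transcripts per cell and more cells of an expressing type cannot be told apart. An opposite-strand gene, *Gm43292*, covers 8.05% of its exon bases, and whether reads were counted by strand is not given in the sources used here.

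*Ern1* encodes IRE1alpha, the kinase and RNase that splices *Xbp1*, and is on chromosome 11 from 106394650 to 106487852. It had 5.44 and 6.02 FPKM in WT, 6.51 and 9.85 in ADPKD and 5.76 and 6.10 in ADPKD+MMPP. The ADPKD libraries were above those of WT, but they differed from each other by more than the gap to WT, and the log2 fold change of 0.42 (SE 0.19) had an adjusted p of 0.156 in limma. *Atf6*, the sensor that is itself a transcription factor, is on chromosome 1 from 170704674 to 170867771. Its FPKM were 9.68 and 9.49 in WT, 11.0 and 10.04 in ADPKD, and 21.0 and 20.3 in ADPKD+MMPP. WT and ADPKD differed by a log2 fold change of 0.12 (SE 0.11, limma, adjusted p = 0.419), whereas ADPKD+MMPP stood apart from both.

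Of the transcription factors, *Xbp1* is on chromosome 11 from 5520659 to 5525893. It had 64.3 and 85.6 FPKM in WT, 79.0 and 88.9 in ADPKD and 87.9 and 79.7 in ADPKD+MMPP, and its groups overlapped in each comparison. The spliced and unspliced forms, which differ by a short intron, are not separated by gene-level values. *Atf4*, on chromosome 15 from 80255184 to 80257541, is the factor translated under eIF2alpha phosphorylation. Its FPKM were 344 and 386 in WT, 297 and 280 in ADPKD, and 132 and 130 in ADPKD+MMPP. From high to low, the order of the groups was WT, ADPKD and ADPKD+MMPP, with no overlap.

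*Ddit3* encodes CHOP, the pro-apoptotic factor of the PERK arm, and lies on chromosome 10 from 127290774 to 127296288. It had 42.1 and 48.4 FPKM in WT, 35.2 and 36.0 in ADPKD and 51.7 and 48.4 in ADPKD+MMPP. ADPKD was the lowest group, and WT and ADPKD+MMPP were next to each other, with WT replicate 2 and ADPKD+MMPP replicate 2 nearly equal. GENCODE vM21 gives the symbol to 2 overlapping loci, which were joined here, and genes on the opposite strand cover 4.73% of its exon bases.

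*Hspa5*, on chromosome 2 from 34771970 to 34777547, encodes BiP, the major Hsp70 chaperone of the ER, and was the most abundant of the 10 in WT and ADPKD. It had 579 and 704 FPKM in WT, 865 and 733 in ADPKD and 68.1 and 69.4 in ADPKD+MMPP. These values stand for 74884 to 121011 reads in the WT and ADPKD libraries and for 3402 and 3200 reads in the shallower ADPKD+MMPP libraries, so few reads were not the limit.

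*Dnajb9* encodes ERdj4, a J-domain co-chaperone of BiP, and is on chromosome 12 from 44205559 to 44210326. Its FPKM were 94.0 and 138 in WT, 139 and 112 in ADPKD, and 201 and 213 in ADPKD+MMPP. WT and ADPKD overlapped, and both ADPKD+MMPP libraries were higher than either. *Herpud1*, on chromosome 8 from 94386438 to 94395377, encodes an ER membrane protein of ER-associated degradation, the route by which misfolded proteins are returned to the cytosol. It had 127 and 146 FPKM in WT, 117 and 118 in ADPKD and 49.1 and 50.05 in ADPKD+MMPP, so that ADPKD+MMPP was the lowest group.

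*Trib3* encodes a pseudokinase induced by ATF4 and CHOP and is on chromosome 2 from 152337422 to 152344032. It was the least abundant of the 10, with 1.55 and 2.72 FPKM in WT, 2.08 and 5.33 in ADPKD and 5.10 and 6.73 in ADPKD+MMPP. ADPKD replicate 1 lay within the WT range and ADPKD replicate 2 within the ADPKD+MMPP range. The values rest on 101 to 363 reads a library.

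Whether loss of *Pkd1* changed these genes was asked first. A gene was called where the fold change was at least 1.5 and the unadjusted P in limma was below 0.05, and adjusted p-values are Benjamini-Hochberg values over all 14862 genes. In ADPKD against WT, 1 of the 10 genes, *Eif2ak3*, was called higher, against a background of 14.2% of all tested genes. No gene was called lower by limma, against a background of 12.5%, although 2 had an unadjusted P below 0.05. These were *Atf4*, with a log2 fold change of -0.34 (SE 0.11, adjusted p = 0.0712), and *Ddit3*, with -0.33 (SE 0.11, adjusted p = 0.0765). *Hspa5* had a log2 fold change of 0.32 (SE 0.15, limma, adjusted p = 0.161). The libraries did not overlap between WT and ADPKD for 7 of the 10 genes, and for 67% of all tested genes. The median log2 fold change over the 10 was 0.15, beside 0.03 over all tested genes.

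Without ADPKD replicate 1, 3 of the 10 were called higher in ADPKD, as *Ern1*, at a log2 fold change of 0.69, and *Trib3*, at 1.04, joined *Eif2ak3*. The lone remaining ADPKD library is then assumed to vary like the other groups. The ADPKD libraries differed by 1.04 in *Trib3* and by 0.53 in *Ern1* on the log2 scale, both higher in replicate 2. In WT, replicate 2 was above replicate 1 in 9 of the 10 genes, with a median difference of 0.24, where the median over all tested genes was 0.

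**Figure D2:**
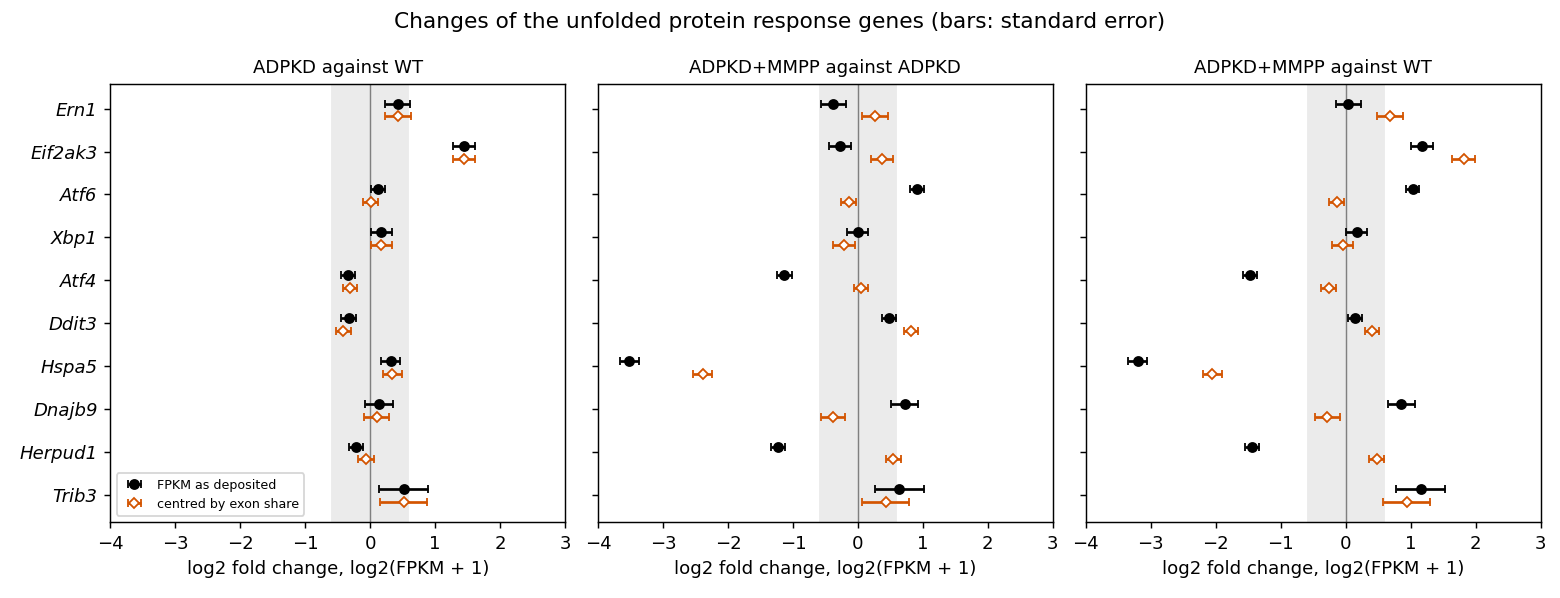
Log2 fold changes of the 10 genes on the log2(FPKM + 1) scale in each comparison, with bars of 1 standard error; the gray band spans fold changes below 1.5. Black points are FPKM as deposited and orange diamonds are values centred by transcript annotation, as described in the text. *Eif2ak3* was called higher in ADPKD on both scales, and *Hspa5* was called lower after MMPP on both.

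Whether MMPP changed these genes was asked next, with the same ADPKD libraries. In ADPKD+MMPP against ADPKD, 2 of the 10 were called higher, against a background of 27.9%, and 3 were called lower, against 43%. The libraries did not overlap for 8 of the 10, beside 87.8% of all tested genes. The decrease was largest for *Hspa5*, which was 11.6-fold lower by the ratio of mean FPKM, with a log2 fold change of -3.52 (SE 0.15, limma, adjusted p = 1.78e-05). *Herpud1* was lower by a log2 fold change of -1.23 (SE 0.11, limma, adjusted p = 0.000169). *Atf4* was lower by -1.13 (SE 0.11, limma, adjusted p = 0.000244).

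*Atf6* was higher by a log2 fold change of 0.91 (SE 0.11, limma, adjusted p = 0.000485). *Dnajb9* was higher by 0.72 (SE 0.21, limma, adjusted p = 0.0208), a call that was lost without ADPKD+MMPP replicate 1, at 0.76, without ADPKD+MMPP replicate 2, at 0.68, and without ADPKD replicate 2, at 0.57. With quantile normalization it was at 0.37 and with a common sum at 0.41, also not called. *Ddit3* had a log2 fold change of 0.48 (SE 0.11, limma, adjusted p = 0.0088), which was below the fold threshold, and was called at 0.81 with TMM factors. *Eif2ak3* was not called, at -0.28 (SE 0.17, limma, adjusted p = 0.18). *Xbp1* was at 0.00 (SE 0.16), *Ern1* at -0.38 (SE 0.19) and *Trib3* at 0.64 (SE 0.38), and none of these passed. Single libraries decided some of this, as *Ern1* was called lower, at -0.65, without ADPKD replicate 1 and *Trib3* higher, at 1.16, without ADPKD replicate 2.

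These changes have to be read against a shift that ran through all genes. The median log2 fold change over all tested genes was -0.36 in this comparison, and it depended on how the transcripts of a gene are annotated. Among protein-coding genes with 15.2% to 20.9% of their exon bases in exactly 1 GENCODE vM21 transcript the median was -1.35, and among those with 88.6% to 100% it was 1.07. In ADPKD against WT the same medians were -0.03 and 0.08. *Herpud1*, with 19.3% of its exon bases in exactly 1 transcript, belonged to the first class, and *Atf6*, with 98.9%, to the second. *Atf4* had a share of 37.0% and *Dnajb9* one of 88.4%. Their changes lay within the range of genes of like structure, since 55.4%, 39.7%, 46.2% and 36.6% of such genes were lower than *Herpud1*, *Atf6*, *Atf4* and *Dnajb9*.

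For *Hspa5*, with a share of 40.2%, 2.1% of such genes had a lower value, and for *Ddit3*, with 62.2%, 67.7% did. After centring on the bin median, with genes of every library put into 20 bins by this share, *Hspa5* was still lower after MMPP by a log2 fold change of -2.39 (SE 0.14, limma, adjusted p = 5.49e-05). *Ddit3* was then called higher by 0.82 (SE 0.11, limma, adjusted p = 0.000997). *Atf4* moved to 0.05, *Atf6* to -0.14, *Dnajb9* to -0.38 and *Herpud1* to 0.54, and none of the 4 was called. A second centring, chosen after seeing the data, binned genes by the lowest share of a principal transcript's bases that lie in no other transcript of the gene. *Atf4* was then called lower, at -0.65 (SE 0.12, limma, adjusted p = 0.00302), and *Hspa5* at -2.20, so that the call of *Atf4* depended on which centring was used. Elsewhere in the text, centred values are those by exon share unless the second centring is named. *Hspa5* has a pair of principal transcripts of 3672 and 2613 bases, of which 31.1% and 3.14% of bases lie in no other transcript of the gene. Among the 5183 genes whose lowest such share was under 5%, 4.78% were at or below its log2 fold change as deposited, beside 0.286% of the 1398 genes with at least 95%. How much of the change of *Hspa5* goes with transcript annotation was not tested beyond these values.

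**Figure D3:**
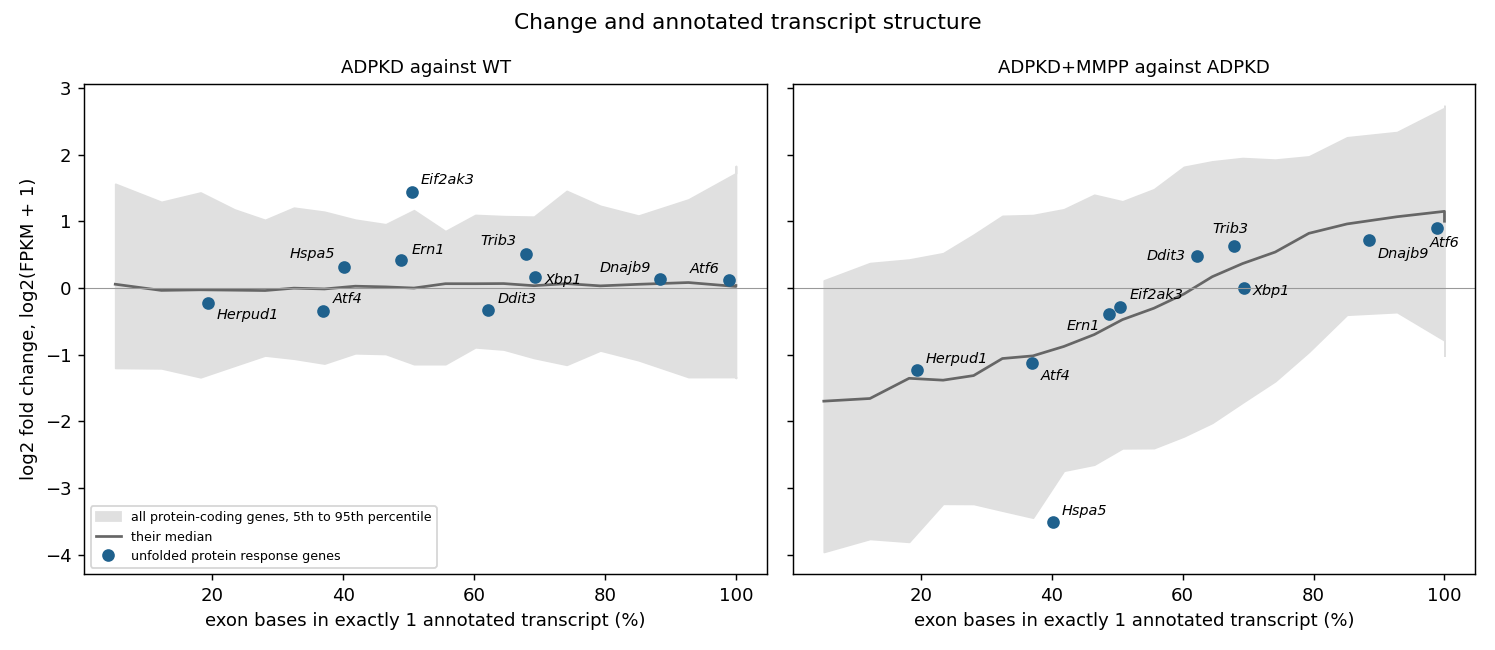
Log2 fold change on the log2(FPKM + 1) scale (vertical) against the percentage of exon bases in exactly 1 annotated transcript (horizontal). The line and gray band are the median and the 5th to 95th percentile of protein-coding genes in 20 bins, and points are the 10 genes. After MMPP the median rose with the share, 9 of the 10 genes lay within the band and *Hspa5*, at -3.52, lay below it.

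In ADPKD+MMPP against WT, which shares its treated libraries with the comparison above, 4 of the 10 were called higher, against a background of 30.1%, and 3 were called lower, against 43.8%. The libraries did not overlap for 8 of the 10, beside 91.9% of all tested genes. *Eif2ak3* was higher by a log2 fold change of 1.17 (SE 0.17, limma, adjusted p = 0.00113), and by 1.82 when centred. Both treated libraries, at 31.7 and 28.9 FPKM, thus lay above both WT libraries. *Trib3* was higher by 1.16 (SE 0.38, limma, adjusted p = 0.0304) and by 0.94 when centred, but its call was lost without WT replicate 1, at 0.88, without ADPKD+MMPP replicate 2, at 0.99, with a common sum, at 0.85, and with the second centring, at 0.33. *Ern1*, at 0.04 as deposited, was called higher when centred, at 0.69, but was at -0.16 and not called with the second centring. *Hspa5* was lower by -3.20 (SE 0.15, limma, adjusted p = 1.83e-05) and by -2.05 when centred. *Atf6* at 1.03 and *Dnajb9* at 0.85 were called higher and *Atf4* at -1.47 and *Herpud1* at -1.44 lower, but none of these 4 was called when centred. With the second centring *Atf4* was still called lower, at -1.06. Without WT replicate 1 *Dnajb9* was at 0.58 and not called.

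Other cell types moved with the groups, and their part in these results was not tested. Of all tested genes, 14.2% were called higher and 12.5% lower in ADPKD against WT, and 27.9% and 43% after MMPP. When centred, the shares after MMPP were 33.7% and 24.5% of 12391 protein-coding genes. The summed FPKM of 14 proximal tubule markers was 563 to 778 in WT, 1422 to 1953 in ADPKD and 21410 to 22590 in ADPKD+MMPP. Of the 14, 5 were called higher and 1 lower in ADPKD against WT. After MMPP 10 were higher and 1 lower, and 13 and 1 when centred. *Gpx3* was the most abundant in WT and ADPKD, at 378 and 396 FPKM in WT and 1274 and 1300 in ADPKD. It carried most of the rise of the sum in ADPKD, where *Miox* fell from 31.1 and 13.6 FPKM to 7.71 and 0.491. *Kap* was the most abundant after MMPP, at 12820 and 12120. Macrophage and leukocyte markers summed to 67.3 to 67.5, 483 to 578 and 1059 to 1110 FPKM in the same order, and 7 of 8 tested were called higher in ADPKD against WT. After MMPP 4 of the 8 were called higher and 4 lower, and 2 and 2 when centred. *Lyz2* had 188 and 224 FPKM in ADPKD and 568 and 565 after MMPP, but *Csf1r* 17.0 and 25.6 and then 0.381 and 0.191. Podocyte markers, led by *Podxl*, summed to 900 to 1231 in WT, 90.8 to 205 in ADPKD and 87.2 to 89.7 in ADPKD+MMPP. All 5 were called lower in ADPKD against WT. After MMPP 3 were called lower and 0 higher, and 4 and 0 when centred. *Podxl*, at 84.1 and 80.8 FPKM, carried the sum after MMPP. *Nphs1* had 13.3 and 3.42 FPKM in ADPKD and 0.205 and 0.332 in ADPKD+MMPP. Plasma cells carry a highly active unfolded protein response. Of their 4 markers, *Mzb1* and *Tnfrsf17* stayed below 1 FPKM in every library, and both of the others were called higher in ADPKD against WT. *Igkc* had 11.9 and 4.68 FPKM in WT, 15.0 and 19.9 in ADPKD and 38.8 and 33.4 in ADPKD+MMPP, and *Jchain* 0.780 and 0.334, 1.62 and 1.55, and 0.404 and 0.364.

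Heat shock genes of the cytosol answer unfolded protein outside the ER and also the handling of tissue. The 12 genes listed here also include *Hspd1* and *Hspe1*, which encode mitochondrial chaperonins. Together the 12 summed to 2691 to 3048 FPKM in WT, 2382 to 2510 in ADPKD and 5931 to 6029 in ADPKD+MMPP. *Hspd1* had 47.6 and 41.9 FPKM in ADPKD and 256 and 250 in ADPKD+MMPP, and *Hspe1* 39.1 and 33.5 and then 184 and 211. The inducible *Hspa1b* rose after MMPP to 2143 and 2187 FPKM, from 257 and 226 in ADPKD. The members of that list did not move together. *Hspa8*, the constitutive cytosolic relative of BiP, had 360 and 357 FPKM in ADPKD and 21.8 and 20.3 in ADPKD+MMPP. After MMPP 6 of the 12 heat shock genes were called higher and 3 lower, beside 27.9% and 43% of all tested genes, and 7 and 2 when centred.

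The wider pathway was described by 126 genes in 7 groups, of which 120 were tested. In ADPKD against WT, 20 (16.7%) were called higher and 1 (0.833%) lower, beside 14.2% and 12.5% of all tested genes, and the median was 0.12. The count of lower calls was 4 with quantile normalization, 5 when centred and 7 with the second centring, and with a threshold of 2-fold in place of 1.5-fold the counts were 11 and 0. None of the 19 ER chaperones and folding enzymes was called by limma, and 1 of them had an unadjusted P below 0.05. ATF4 targets, which serve amino acid synthesis, transport and charging of tRNA, had 11 of 29 called higher and 0 lower by limma, with 11 higher and 2 lower at an unadjusted P below 0.05. Their median was 0.32, and the count stayed at 11 when the ADPKD+MMPP libraries were left out of the fit. *Phgdh*, the first enzyme of serine synthesis, had 11.7 and 8.15 FPKM in WT and 33.0 and 28.9 in ADPKD, a log2 fold change of 1.56 (SE 0.18, limma, adjusted p = 0.00423). *Eif4ebp1*, a repressor of cap-dependent translation, was higher by 1.48 (SE 0.26, limma, adjusted p = 0.0116).

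The other 9 called ATF4 targets were named after their values were seen. *Asns*, *Psat1*, *Mthfd2* and *Aldh18a1* encode enzymes of amino acid and one-carbon metabolism, *Slc7a5* an amino acid transporter and *Sars* a tRNA synthetase, and *Stc2*, *Vldlr* and *Gdf15* complete the list. Their log2 fold changes ran from 0.60 for *Sars* to 1.44 for *Asns*. Other targets were lower without a call, such as *Chac1* at -0.57, *Ddit4* at -0.48, *Atf3* at -0.42 and *Ppp1r15a* at -0.36. When centred, 11 of the 29 were called higher and 2 lower, *Chac1* at -0.69 and *Ddit4* at -0.60. The call of *Sars* was then lost, at 0.57. The RNA of *Atf4* itself was at -0.34, and that of the ATF4 target *Trib3* overlapped between the groups. In the group of ER stress cell death genes 4 of 10 were called higher and 1 lower, beside 14.2% and 12.5% of all tested genes. *Bok*, a BCL2 family member, had 8.57 and 6.34 FPKM in WT and 54.6 and 87.8 in ADPKD, a log2 fold change of 3.07 (SE 0.25, limma, adjusted p = 0.00245). *Pmaip1*, which encodes the BH3-only protein NOXA, was higher by 2.74 (SE 0.22, limma, adjusted p = 0.00241). *Map3k5*, the kinase ASK1, was lower by -0.73 (SE 0.12, limma, adjusted p = 0.00887).

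The remaining groups had 0 to 2 calls each in ADPKD. Of the ER-associated degradation genes, *Nploc4*, a VCP cofactor, was the single call among 19, at 0.76, and it was lost without WT replicate 1 or without ADPKD replicate 2, at 0.69 and 0.42. *Ssr2* at 0.69 and *Spcs3* at 0.67, of the translocon-associated complex and of signal peptidase, were the calls among 21 genes of translocation and glycosylation. *Eif2b2* at 0.76 and *Eif2s1*, eIF2alpha itself, at 0.60 were the calls among 10 genes of eIF2 control. The calls of *Spcs3* and *Eif2s1* were lost when centred, at 0.55 and 0.48. Of 12 relatives and partners of the sensors 0 were called by limma, with 3 higher and 2 lower at an unadjusted P below 0.05.

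**Figure D4:**
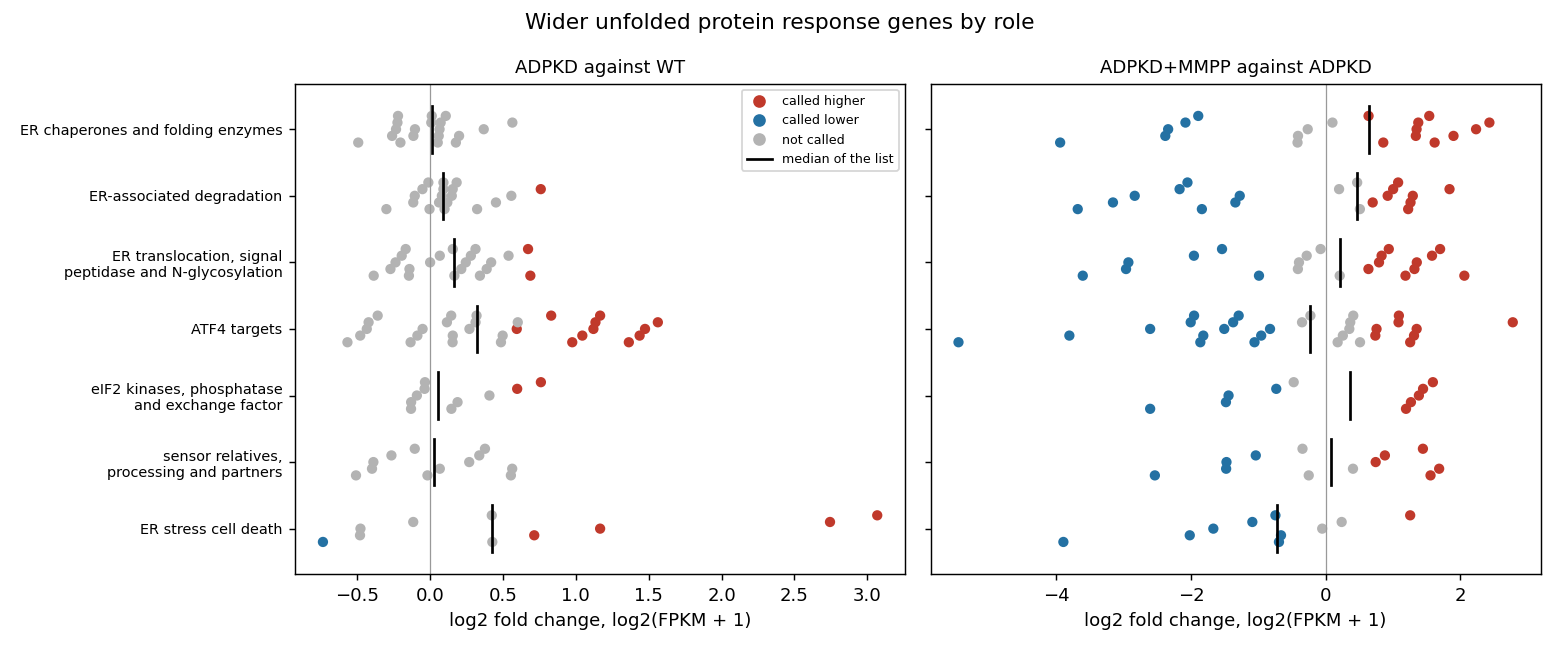
Log2 fold changes on the log2(FPKM + 1) scale of the tested wider pathway genes, 120 in all, by role, in ADPKD against WT and in ADPKD+MMPP against ADPKD (the horizontal axes differ). Red and blue points are genes called higher and lower, gray points are not called and black bars are medians. In ADPKD 11 of 29 ATF4 targets were called higher, and after MMPP every role had genes called in both directions.

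After MMPP 47 of the 120 wider genes (39.2%) were called higher and 47 (39.2%) lower as deposited, beside 27.9% and 43% of all tested genes. When centred, 42 (35%) were higher and 31 (25.8%) lower, beside 33.7% and 24.5% of 12391 protein-coding genes, so the shares were then near the background. With the second centring 27 were higher and 30 lower, where 6790 of 12391 protein-coding genes were called, 55.7% of them higher. Of the ER chaperones and folding enzymes 10 were higher and 5 lower, and 9 and 5 when centred. *Sdf2l1*, a partner of ER J-domain proteins, had 9.88 and 7.29 FPKM in ADPKD and 45.4 and 55.4 in ADPKD+MMPP, and was called higher by 2.43 (SE 0.23, limma, adjusted p = 0.000223). The disulfide isomerase *Pdia4* was called higher by 2.23, whereas its relative *Pdia6* had 66.9 and 51.4 FPKM in ADPKD and 3.03 and 2.74 in ADPKD+MMPP, a log2 fold change of -3.94 (SE 0.15, limma, adjusted p = 1.51e-05). *Hyou1*, an ER chaperone that acts on BiP as an exchange factor, was lower by -2.38. The directions of these 4 genes were the same when centred, at 1.25, 1.13, -4.15 and -1.21, and all 4 were still called. Genes of the ER chaperone list thus moved both ways while *Hspa5* was lower.

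Of the ER-associated degradation genes 8 were called higher and 8 lower of 19 after MMPP (42.1% each), beside 27.9% and 43% of all tested genes. When centred, 8 were higher and 5 lower. The ubiquitin ligase *Syvn1* was lower by -3.16 and *Selenos*, its partner at the ER membrane, by -3.68, while the ATPase *Vcp* was higher by 1.29 and *Edem2*, which trims the glycans of misfolded proteins, by 1.84. When centred these genes were at -1.21, -2.04, 0.88 and 1.01 in the same order, and each was still called. Of 21 translocation and glycosylation genes 10 were higher and 6 lower, and 7 and 6 when centred. Subunits of signal peptidase went opposite ways, with *Spcs1* at -3.61 and *Spcs2* at -2.96 but *Spcs3* at 2.06, and all 3 kept their call when centred. The oligosaccharyltransferase subunit *Ddost* was higher by 1.70, a call lost when centred, at 0.53.

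Of 29 ATF4 targets 13 (44.8%) were called lower and 8 (27.6%) higher after MMPP, beside 43% and 27.9% of all tested genes. These shares were thus near the background. When centred, 7 (24.1%) were lower and 8 (27.6%) higher, beside 24.5% and 33.7% of 12391 protein-coding genes. *Gdf15*, a secreted stress cytokine, had 111 and 187 FPKM in WT, 266 and 249 in ADPKD and 4.48 and 5.35 in ADPKD+MMPP, a log2 fold change of -5.45 after MMPP (SE 0.25, limma, adjusted p = 2.26e-05) and -4.33 when centred. *Nars*, asparaginyl-tRNA synthetase, was lower by -3.81 and *Gars*, glycyl-tRNA synthetase, higher by 1.35, a call lost when centred at 0.52. *Cth*, which makes cysteine, was higher by 2.78 and *Phgdh* by 1.31. Phgdh thus stood at 79.5 and 76.8 FPKM after MMPP, higher than in ADPKD, while *Asns* fell from 8.81 and 11.7 FPKM to 3.47 and 3.15, though its centred change was 0.00.

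Of the 10 eIF2 control genes 5 were higher and 4 lower, beside 27.9% and 43% of all tested genes. When centred, 3 were higher and 2 lower, beside 33.7% and 24.5% of 12391 protein-coding genes. *Eif2s1* was higher by 1.59 and the interferon-induced kinase *Eif2ak2* by 1.45, while the amino acid sensor kinase *Eif2ak4* was lower by -2.61 and *Eif2b2* by -1.48. When centred only *Eif2ak4* of these 4 was still called, at -0.89, and *Eif2b2* was at 0.16. Of the sensor relatives and partners 5 were higher and 4 lower of 12 (41.7% and 33.3%), and 4 and 3 when centred, beside the same backgrounds. *Mbtps1*, the Golgi protease that cuts ATF6, had 12.5 and 10.7 FPKM in ADPKD and 1.24 and 1.10 in ADPKD+MMPP, at -2.54 (SE 0.13, limma, adjusted p = 2.86e-05) and -2.20 when centred. *Rtcb*, the ligase that joins spliced *Xbp1*, was higher by 1.68, a call lost when centred at 0.58. *Tmbim6*, a suppressor of IRE1, was higher by 1.56 and *Traf2*, an IRE1 adaptor, lower by -1.48.

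Of the 10 cell death genes 7 were called lower and 1, *Bcl2*, higher by 1.25, beside 43% lower and 27.9% higher of all tested genes. When centred, 3 were lower and 3 higher, and *Bcl2* was at 0.20 and not called. After MMPP *Bak1* was listed at 0 in both libraries, beside 13.4 and 14.3 FPKM in ADPKD. *Pmaip1* was lower by -1.67 as deposited but at 0.44 when centred, where 1.72% of its exon bases lie in exactly 1 transcript. *Bok* had 68.8 and 64.9 FPKM after MMPP, between the values of the ADPKD libraries.

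The genes whose pattern over the 6 libraries was most like that of *Hspa5* were sought among the 120 wider genes by the root mean square difference of log2(FPKM + 1), each gene centred on its own mean. These were *Spcs1* at 0.13, *Syvn1* at 0.21 and *Selenos* at 0.23, where the median over the 120 was 1.70. The distances were taken from FPKM as deposited. When centred by exon share, the changes of these genes after MMPP were -1.66, -1.21 and -2.04, beside -2.39 for *Hspa5*. *Spcs1* had 31.2 and 32.2 FPKM in WT, 36.9 and 34.0 in ADPKD and 1.97 and 2.02 in ADPKD+MMPP. For *Ddit3* the nearest were *Edem3* at 0.15, *Herpud2* at 0.15 and *Nfyb* at 0.15, with a median over the 120 of 0.63. The centred changes of *Edem3* and *Nfyb* after MMPP were 1.15 and 1.63, beside 0.82 for *Ddit3*. *Herpud2*, the relative of *Herpud1*, had 10.8 and 11.2 FPKM in ADPKD and 17.5 and 19.4 in ADPKD+MMPP, so that the relatives moved in opposite directions as deposited, but its centred change was -0.41 and not called.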

How the data were processed

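DBA-positive kidney cells of 3 groups were sequenced, with 2 libraries each. Per the submitters' processing notes and the study's methods, reads were aligned to mm10 with HISAT2 2.1.0 and counted with featureCounts 1.6.0, and the authors used DESeq2 for their own calls. The authors deposited FPKM per gene symbol, and how these were made from counts, with which annotation and strand setting, is not given in the sources used here. Of 55367 symbols, 53274 matched GENCODE vM21, which gave identifiers, positions and exon lengths. Depth was read from the steps of low FPKM values times exon length, up to 20 reads and with a tolerance of 0.05 of a read.

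A gene was tested if 2 or more libraries had it at 1 FPKM or above, which 14862 genes did. The test was limma 3.58.1 (R 4.3.3) with a mean-variance trend, fitted once over the 6 libraries to log2(FPKM + 1). A call required a fold change of at least 1.5 and an unadjusted P below 0.05, after the study's methods, and adjusted p-values are over all tested genes. With 2 libraries a group, precision is set by the spread between libraries. The steps were tested on simulated data.

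All 10 genes and *Pkd1* are named. Of each wider list the 2 highest and 2 lowest called genes are named for ADPKD against WT and for ADPKD+MMPP against ADPKD. This held if the libraries did not overlap and the mean FPKM was at least 5 in at least 1 group. No genes were named by this rule for ADPKD+MMPP against WT. Named too are the 3 nearest in pattern to *Hspa5* and *Ddit3* and the most abundant gene of marker lists by the mean over the 6 libraries. Other genes of these lists, such as *Asns*, *Hspa8*, *Csf1r*, *Fosb*, *Slc12a3* and the plasma cell markers, and *Phgdh* after MMPP were named after their values were seen. The genes and lists were chosen with earlier results of these data known. Marker lists of principal cells, intercalated cells, thick limb, endothelium, fibroblasts and erythroid cells and of early response genes were also summed. Motifs were searched by exact match in RefSeq promoters. Alternatives covered the pseudocount, the filter, scaling, trend, groups in the fit, thresholds, a replicate block, centring by exon share over 12391 protein-coding genes, and leaving out each library. Centring by the lowest share of a principal transcript was chosen after seeing the data.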

Additional observations from a re-analysis of the deposited data

How the results depend on the processing

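In ADPKD against WT, the call of *Eif2ak3* held under every alternative run. The number of the 10 genes called ran from 1 to 3 when a library was left out and the median change from 0.0536 to 0.394, with *Xbp1* from -0.0303 (reversed without WT replicate 1) to 0.377, *Dnajb9* from -0.142 (reversed without WT replicate 1, and at -0.02 without ADPKD replicate 1) to 0.411 and *Trib3* from -0.00267 (reversed without ADPKD replicate 2) to 1.04. Reversed too was *Atf6* (-0.00839) with centring by principal transcript. In ADPKD+MMPP against ADPKD, the decrease of *Hspa5* was called under every alternative run. As deposited 5 genes were called there, but 3 at a fold change of at least 2, 2 with centring by exon share and 3 with centring by principal transcript, and 4 to 6 when a library was left out. The median of -0.14 became 0.19 with TMM factors, -0.44 with a common sum, 0.16 with centring by exon share and -0.31 with centring by principal transcript. Reversed values in this comparison were *Eif2ak3* (0.0521) and *Xbp1* (0.334) with TMM factors, *Ern1* (0.078) with quantile normalization, and *Xbp1* (0.068) without ADPKD+MMPP replicate 2 and (0.082) without ADPKD replicate 2, in a leave-one-out range of -0.0863 to 0.082. Centring by exon share reversed *Ern1* (0.26), *Eif2ak3* (0.37), *Atf6* (-0.14), *Atf4* (0.0456), *Dnajb9* (-0.38), *Herpud1* (0.54), *Eif2b2* (0.16) and *Pmaip1* (0.44). Centring by principal transcript reversed *Eif2ak3* (0.11), *Atf6* (-0.22), *Dnajb9* (-0.40), *Herpud1* (0.0901) and *Trib3* (-0.20), and *Atf4* was still called lower, at -0.65. In ADPKD+MMPP against WT, 7 genes were called as deposited, 4 with centring by exon share and 3 with centring by principal transcript. The median was 0.46 with TMM factors, -0.23 with a common sum and -0.19 with centring by principal transcript. Reversed values were *Xbp1* (-0.21) and *Ddit3* (-0.17) with quantile normalization, *Ern1* (-0.29), *Xbp1* (-0.22) and *Ddit3* (-0.24) with a common sum, and *Ern1* (-0.0194) and *Xbp1* (-0.0324) without WT replicate 1. Centring by exon share reversed *Atf6* (-0.14), *Xbp1* (-0.0411), *Dnajb9* (-0.28) and *Herpud1* (0.48), and centring by principal transcript *Ern1* (-0.16), *Atf6* (-0.23), *Xbp1* (-0.35) and *Dnajb9* (-0.40). The cause of these differences was not tested. Replicate numbers are shared across groups, and same-numbered libraries deviated together with r of 0.129, -0.00796 and 0.0137. Whether same-numbered libraries were prepared together is not given in the sources used here, and values this small cannot settle it. With the replicate block 1, 6 and 7 of the 10 genes were called in the order of comparisons above, *Trib3* being the added call, at 0.64 (limma, adjusted p = 0.0361). TMM factors moved the median of all genes after MMPP to -0.10, quantile normalization to 0.10 and a common sum to -0.56, and the share of calls that were higher went from 39.3% to 47.8%, 53.9% and 31.5%. With 2 libraries a group, of unknown animals, the depth and making of the treated libraries cannot be told apart from treatment.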

Other observations

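Early response genes, which dissociation of tissue is known to induce, moved with the groups as well. The summed FPKM of 7 of them was 8893 and 9287 in WT, 5042 and 3782 in ADPKD and 9488 and 9658 in ADPKD+MMPP. In ADPKD against WT 5 of the 7 were called lower by limma, beside 12.5% of all tested genes. In ADPKD+MMPP against WT 2 were called higher and 2 lower, beside 30.1% and 43.8% of all tested genes. When centred, 0 were higher and 4 lower, beside 35.8% and 26.8% of 12391 protein-coding genes. *Fosb*, at 882 and 829 FPKM in ADPKD, was at 182 and 169 after MMPP. *Junb* had 2432 and 2372 FPKM in WT, 1221 and 910 in ADPKD and 2805 and 2837 in ADPKD+MMPP. The level of *Ddit3* in ADPKD, at 35.2 and 36.0 FPKM, was likewise below those of WT and ADPKD+MMPP, and the part of early response in it was not tested. Other marker lists differed between groups too, and the shares of all tested genes called are those given above. Intercalated cell markers, led by *Slc26a4*, summed to 201 and 226 FPKM in WT, 38.4 and 19.1 in ADPKD and 150 and 154 in ADPKD+MMPP. Thick limb and distal tubule markers summed to 1270 and 491, 611 and 192, and 217 and 212 FPKM, a sum carried by *Umod*. After MMPP 3 of the 6 were called higher and 1 lower, and 5 and 0 when centred. *Slc12a3* had 35.6 and 3.14 FPKM in ADPKD and 65.8 and 67.4 after MMPP. Endothelial markers summed to 1017 and 860, 553 and 564, and 341 and 371, and in ADPKD 7 of the 8 were called lower and *Plvap* higher, from 146 and 127 to 242 and 277 FPKM. Fibroblast and pericyte markers summed to 105 and 84.1 FPKM in WT, 153 and 173 in ADPKD and 163 and 170 in ADPKD+MMPP. After MMPP 2 of the 7 were called higher and 3 lower, and 1 and 4 when centred. *Pdgfrb* was at 38.9 and 31.4 FPKM in ADPKD and 1.05 and 0.837 after MMPP, and *Col1a1* at 32.3 and 33.4 and then 61.6 and 70.1. Erythroid markers stayed at 1.98 to 6.70 FPKM. Of 7 principal cell markers tested, 4 were called higher and 2 lower after MMPP, and 1 and 1 when centred. *Scnn1b* had 133 and 56.7 FPKM in ADPKD and 26.25 and 23.7 in ADPKD+MMPP.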
